A study of Homo sapiens with 10 samples.

Results

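Molecular chaperones of the cytosol and the endoplasmic reticulum (ER) were 44 of the 63677 gene IDs counted in these libraries. They were chosen by name, as listed symbols matched to Ensembl gene IDs, and fall into 3 groups. The cytosolic group holds 20 genes: the heat shock transcription factor HSF1, the HSP70 proteins HSPA1A, HSPA1B, HSPA4, HSPA8, HSPA14 and HSPH1, the small heat shock protein HSPB1, the HSP90 proteins HSP90AA1 and HSP90AB1, the HSP40 proteins DNAJA1, DNAJA2, DNAJB1, DNAJB2, DNAJB4 and DNAJB6, and the co-chaperones BAG1, BAG3, ST13 and STIP1. The chaperonin group holds the 8 subunits of TRiC: TCP1, CCT2, CCT3, CCT4, CCT5, CCT6A, CCT7 and CCT8. The ER group holds 16 genes: HSPA5, HSPA13, HSP90B1, HYOU1, DNAJB9, DNAJB11, DNAJC3, PDIA3, PDIA4, PDIA6, CALR, CANX and SDF2L1, which fold proteins in the ER lumen or membrane, and XBP1, ERN1 and ATF6, which sense or transmit ER stress.

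RNA was sequenced from RS4;11, an established B-cell precursor acute lymphoblastic leukemia line with a KMT2A rearrangement. Of 10 lines derived from this parental line, 5 (VENins) had grown with the BCL-2 inhibitor venetoclax (VEN) at stepwise higher doses, and 5 (VENsens) with only its solvent, DMSO. VENins cultures held the drug until it was washed out ahead of the analysis, and each line gave 1 library, so the spread within a group is the spread between lines of a single parental culture. The comparison asks how the transcriptome of the VENins lines differs from that of the VENsens lines. Counts on genes ranged from 20631907 to 28323643 per library.

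HSP70 proteins bind unfolded stretches of a protein in a cycle of ATP hydrolysis that HSP40 proteins start and nucleotide exchange factors such as HSPH1 and the BAG proteins end, and STIP1 passes clients from HSP70 to HSP90. TRiC is a ring-shaped chamber in which actin, tubulin and other cytosolic proteins fold, whereas the ER has its own HSP70 (HSPA5), HSP90 (HSP90B1), lectin chaperones (CALR, CANX) and disulfide isomerases (the PDIA proteins). HSF1 switches on the cytosolic genes after heat or proteotoxic stress, and ERN1, ATF6 and XBP1 do so for the ER genes in the unfolded protein response, a pathway that B-lineage cells use when they become antibody-secreting cells.

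The libraries carried the RNA of a B-cell precursor. All values below are counts per 1000000 counts of a library after TMM scaling (CPM), unless another scale is named. Of 12 B-cell precursor and KMT2A leukemia markers, all 12 were tested, their sum lay between 3709 and 4141 in every library, and PAX5 and the immunoglobulin-like gene IGLL1 were among the most abundant. The T cell markers (4 genes) summed to at most 1.08 in a library, the myeloid markers (4 genes) to at most 1.32 and the fibroblast markers (3 genes) to at most 3.34, while 3 of the 4 erythroid markers had no count. The plasma cell list (5 genes) summed to between 486 and 593, nearly all of it from MZB1 and IRF4, which B-cell precursors also express, and its defining gene PRDM1 did not exceed 1.22. A marker that passed the test was PAX5, the B-lineage transcription factor, at 783 ± 42.9 in VENsens and 631 ± 34.7 in VENins (SD, n = 5 each). Its log2 fold change was -0.31 ± 0.05 (standard error, SE; edgeR adjusted p = 0.0272), every VENins line lay below every VENsens line, and the call was lost without line 2, 3 or 5. IRF4, at 211 to 221 in VENsens and 175 to 198 in VENins (adjusted p = 0.0691), was also lower in all VENins lines and was called by DESeq2. Of the 12 precursor markers, 7 were above 0 and 5 below, with 3 higher (CD79B at 0.24, IGLL1 at 0.17 and VPREB1 at 0.14) and 2 lower (PAX5, and RAG1 at -0.32) at an unadjusted p under 0.05. RAG1 was at 155 in VENins 2 and 129.6 in VENins 5, beside 201 to 263 in VENsens, and DNTT was at 27.3 in VENins 4, beside 1.08 to 3.38 in the other VENins lines. VENins 5 held the highest value for IGLL1 (899), CD79A (727), MZB1 (401) and CD79B (213). VENins 2 came next, at 747, 604, 340 and 189. MZB1 had a log2 fold change of 0.16. Among 7 immediate early genes, which respond to handling, 5 had lower values in VENins and none passed the test. EGR1 lay between 3.22 and 4.32 in VENins and between 4.68 and 6.54 in VENsens. Reads that did not align made up 9.39% to 9.95% of a VENins file and 9.84% to 10.2% of a VENsens file. The part of these differences in the chaperone values was not tested.

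The chaperone genes differed little between the groups. Of the 44 members, 42 passed the filter on low counts. In edgeR's quasi-likelihood test with the line number in the model, 0 of these 42 had an adjusted p under 0.05 over all tested genes, where 33 of 16756 genes (0.197%) did. Leaving out a line gave 6 to 331 genes and 0 members. Without the line number, edgeR called 149 genes and 2 members (HSPH1 and DNAJA1). DESeq2 with the line number called 3 members, HSPH1, STIP1 and DNAJA1, all with higher values in VENins, and 217 of 16756 genes (1.3%). At an unadjusted p under 0.05 in edgeR, 6 of 42 members (14.3%) were higher in VENins and 0 were lower, against 7.79% of all tested genes higher and 8.38% lower. The 6 were HSPH1, STIP1, DNAJA1, DNAJB6, HSPA14 and DNAJB11. This count was 3 without line 2, 9 without line 4 or 5, 10 without the line term and 16 with length and GC correction. Over all tested genes, 2710 passed in either direction, and 1411 without line 2, 2511 without line 4 and 2763 without line 5. The total was 3047 without the line term and 3275 with length and GC correction. Lower members numbered 2 without line 1, 1 without line 4 and 1 with no filter. In 3 members (7.14%), again HSPH1, STIP1 and DNAJA1, all 5 VENins lines lay above all 5 VENsens lines, which held for 2.36% of all tested genes, and in 0 members did they all lie below, which held for 2.3%. A log2 fold change above 0 was found for 32 of 42 members (31 with library size alone as the scale), against 51.1% of all tested genes. In these bulk libraries, a difference in RNA per cell cannot be told apart from a difference in the mix of cells.

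By group, the median log2 fold change was 0.11 for the 18 tested cytosolic genes, 0.08 for the 8 TRiC subunits and 0.03 for the 16 ER genes, beside 0.0035 for all tested genes. In the cytosolic group 14 genes were above 0 and 4 below, in TRiC 8 and 0, and in the ER group 10 and 6. The highest of the 10 values of a gene was in a VENins library for all 18 tested cytosolic genes and all 8 TRiC subunits, but for 10 of the 16 ER genes (62.5%), against 58.6% of all tested genes. Spread was wider in VENins, with a median coefficient of variation of 7.08% against 5.69% in VENsens over the 9973 tested genes above 10 CPM. The lowest fell in VENsens 1 or VENsens 2 for 10 of the 18 cytosolic genes (55.6%), 7 of the 8 TRiC subunits and 10 of the 16 ER genes (62.5%), against 26.9% of all tested genes. In the ER group this was VENsens 1 for 9 genes and VENsens 2 for 1, and VENsens 2 held the highest value for 4.

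**Figure D1:**
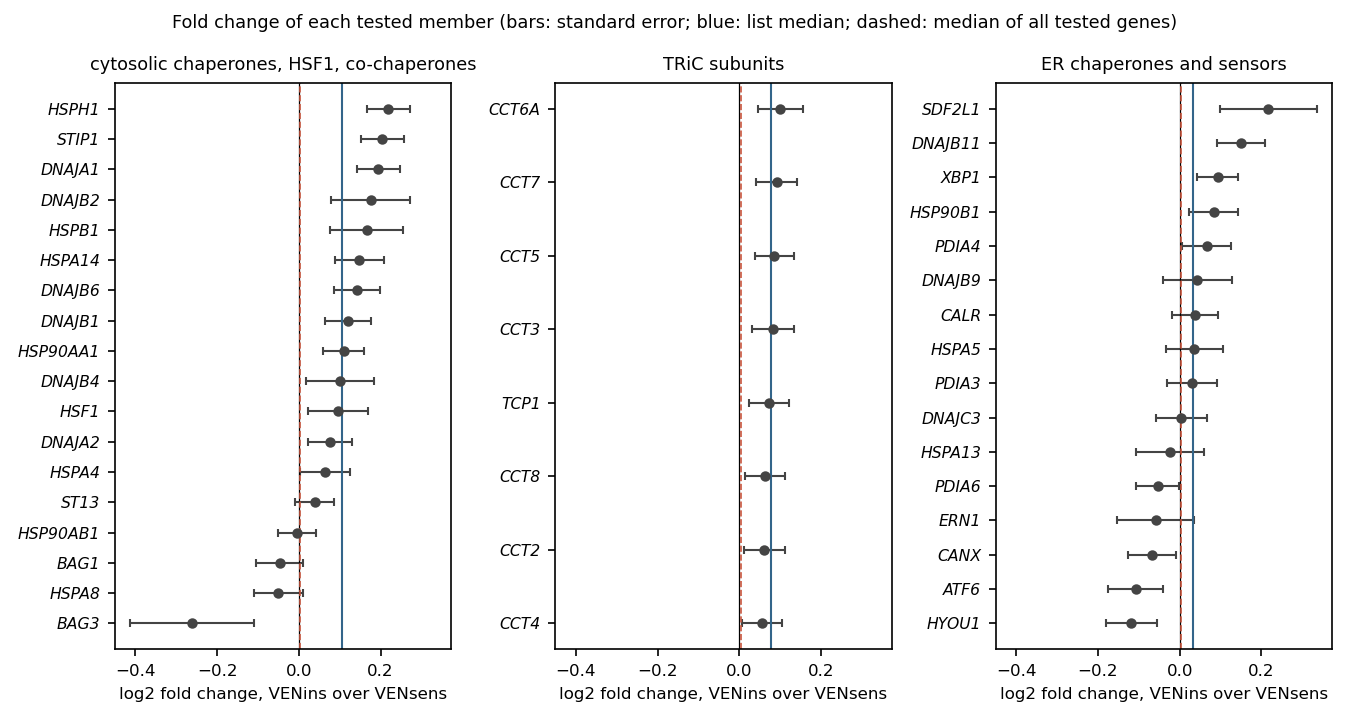
Log2 fold change of VENins over VENsens for each tested member (points, with the standard error), in panels for the cytosolic, TRiC and ER groups. The blue line is the median of the panel, at 0.11, 0.08 and 0.03, and the dashed line is the median of all tested genes, at 0.0035. All 8 TRiC subunits lie right of 0, and the ER genes lie on both sides of it.

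HSF1 (ENSG00000185122), the transcription factor of the heat shock response, was measured at 139.7, 126, 134, 131 and 128 in VENsens lines 1 to 5 and at 135, 132, 124, 140.4 and 180.1 in VENins lines 1 to 5. VENins 5 stood above the others, while the remaining 4 VENins lines lay in the range of the VENsens lines or just outside it. The log2 fold change was 0.10 ± 0.07 (SE, adjusted p = 0.556) and came to -0.0024 without line 5 and 0.15 without line 3. In VENins 5 the small heat shock protein HSPB1, which holds unfolded proteins in solution, was also high, at 275 beside 168 to 202 in the other VENins lines and 155 to 193 in VENsens. Its log2 fold change was 0.17, and 0.05 without line 5.

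The stress-inducible HSP70 genes HSPA1A and HSPA1B, near-identical copies on chromosome 6, could not be read from these files. HSPA1A was listed at 0 counts in all 10 libraries, and HSPA1B had 4 counts in all, 1 in VENsens 4, 1 in VENins 1 and 2 in VENins 2. Their neighbours were listed in the same way: each of the 48 other protein-coding genes within 250 kb of HSPA1A in the GENCODE 29 annotation had a total of 4 counts or fewer over the 10 libraries, and 43 of them had none. Over all 19376 protein-coding genes, 28.6% had a total of 10 or less. The chaperone genes BAG6 and PFDN6, the transcription factor gene ATF6B and the tubulin gene TUBB, which are also on chromosome 6, had totals of 4, 0, 0 and 1 count. Other genes of the chromosome were well counted, with means of 2043 CPM for HSP90AB1, 293 for TCP1 and 206 for FKBP5. Between 24.6% and 26.2% of the reads of a file had been set aside for low alignment quality, and their part in these counts was not tested. No level or fold change is given for HSPA1A or HSPA1B, and their summed counts also failed the filter.

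HSP90AB1 and HSP90AA1, the constitutive and the inducible cytosolic HSP90, were the cytosolic members with the highest levels per length. Averaged over the 10 libraries, HSP90AB1 reached 685 CPM per kilobase of exon (rank 61 among tested genes), HSP90AA1 365 (rank 137) and the constitutive HSP70 HSPA8 257 (rank 202). At the low end of the group, DNAJB2 was at 1.69 on this scale. HSP90AB1 gave 2058, 1885, 2101, 2063 and 2121 CPM in VENsens lines 1 to 5 and 1964, 1916, 2119.6, 2157 and 2043 in VENins lines 1 to 5. The groups overlapped over nearly their whole range, with a log2 fold change of -0.0043 ± 0.05 (SE, adjusted p = 0.981). HSP90AA1 gave 1722, 1817, 1860.3, 1862 and 1964 in VENsens and 2059, 1959, 2010.1, 1996 and 1921 in VENins. Here 3 VENins lines lay above every VENsens line and 2 lay inside the VENsens range, and the log2 fold change was 0.11 ± 0.05 (SE, adjusted p = 0.309), and 0.07 without line 1. HSPA8 was at 1265 ± 62.6 in VENsens and 1229 ± 152 in VENins (SD, n = 5 each), with VENins 2 lowest at 1005 and VENins 4 highest at 1402. Its log2 fold change was -0.05 ± 0.06 (SE), between -0.10 (without line 4) and 0.02 (without line 2).

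**Figure D2:**
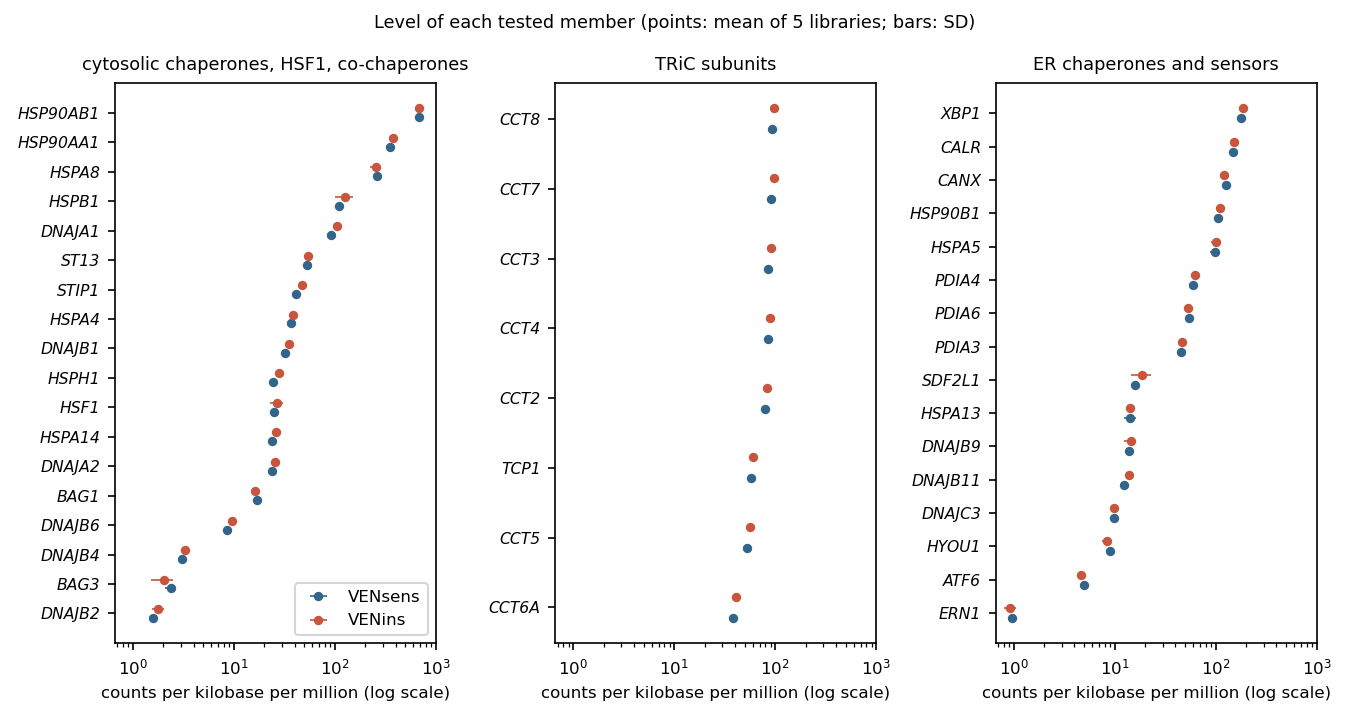
Mean CPM per kilobase of exon (log axis) of each tested member in the 5 VENsens and the 5 VENins libraries, with the SD. HSP90AB1, HSP90AA1 and HSPA8 head the cytosolic group at 685, 365 and 257, the TRiC subunits lie within a 2.43-fold range, and XBP1 heads the ER group at 183. Pseudogene counts are left out.

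Promoters are shown for the cytosolic members with an exact match to the heat shock element, the sequence HSF1 binds, because these genes are known to be driven together. The element was taken as the units GAA, TTC and GAA, each 2 bases from the next, on either strand, in the 250 bases before a RefSeq start (GRCh38.p14). Looser forms of the element were not searched for, so a promoter without a match may still hold one. Promoters were found for 39 of the 44 members (17 cytosolic, 7 TRiC and 15 ER), and the remaining members were not searched. The element was in 4 of 24 promoters of the cytosolic members (16.7%), 0 of 9 of TRiC and 0 of 21 of the ER members, and in 0.441% of all 35116 promoters. It was found at HSP90AB1 (chr6:44247693-44247942, plus strand), HSP90AA1 (chr14:102087045-102087294, minus strand), HSPA8 (chr11:123062137-123062386, minus strand) and DNAJB6 (chr7:157336754-157337003, plus strand), with 2 matches each at HSP90AB1 and HSPA8. The sequences run 5′ to 3′ on the strand of the gene and end at the base before the start, with the element in capitals.
HSP90AB1: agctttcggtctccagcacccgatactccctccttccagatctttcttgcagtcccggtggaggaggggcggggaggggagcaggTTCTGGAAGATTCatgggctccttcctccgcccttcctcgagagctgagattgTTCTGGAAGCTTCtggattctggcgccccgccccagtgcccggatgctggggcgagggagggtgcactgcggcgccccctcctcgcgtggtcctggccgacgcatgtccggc
HSP90AA1: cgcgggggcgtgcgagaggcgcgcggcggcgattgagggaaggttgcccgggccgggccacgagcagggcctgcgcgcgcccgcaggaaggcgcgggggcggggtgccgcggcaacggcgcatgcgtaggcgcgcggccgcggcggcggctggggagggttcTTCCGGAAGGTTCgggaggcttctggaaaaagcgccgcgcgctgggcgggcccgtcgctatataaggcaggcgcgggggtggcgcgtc
HSPA8: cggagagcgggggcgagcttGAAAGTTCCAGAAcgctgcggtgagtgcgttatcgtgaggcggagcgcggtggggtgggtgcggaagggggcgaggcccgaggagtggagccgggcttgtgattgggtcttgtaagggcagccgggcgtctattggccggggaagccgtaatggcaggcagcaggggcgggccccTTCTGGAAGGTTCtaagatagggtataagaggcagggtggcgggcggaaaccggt
DNAJB6: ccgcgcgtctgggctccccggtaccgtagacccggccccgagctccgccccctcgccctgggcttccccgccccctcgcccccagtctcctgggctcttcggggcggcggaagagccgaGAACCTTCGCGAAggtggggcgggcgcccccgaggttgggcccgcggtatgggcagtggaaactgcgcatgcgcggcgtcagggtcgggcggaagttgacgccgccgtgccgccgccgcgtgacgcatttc
The shorter pair GAA and TTC, 2 bases apart, lies inside the element and was in 9 of the 24 cytosolic promoters, those of HSPA1A, HSPA1B, HSPB1, DNAJA1 and DNAJB1 besides the 4 above, in 2 of the 9 TRiC promoters (CCT2 and TCP1), in 1 of the 21 ER promoters (CANX) and in 5.78% of all promoters. A match describes the letters in this window and not binding. The log2 fold changes of the 4 genes with the full element were -0.0043 for HSP90AB1, 0.11 for HSP90AA1, -0.05 for HSPA8 and 0.14 for DNAJB6, none past the adjusted threshold.

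HSPH1 (ENSG00000120694), the HSP110 exchange factor that resets HSP70, had the smallest p among the members. It was measured at 194, 204, 211, 204 and 206 in VENsens lines 1 to 5 and at 252, 234, 229, 237 and 234 in VENins lines 1 to 5. The groups did not overlap: the lowest VENins value, 229, exceeded the highest VENsens value, 211. The log2 fold change was 0.22 ± 0.05 (SE), with an adjusted p of 0.088 in edgeR and 0.0177 in DESeq2, and between 0.000105 and 0.484 over the 15 alternatives.

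DNAJA1 (ENSG00000086061), an HSP40 that hands clients to HSP70, was at 243, 251, 261, 249.8 and 261 in VENsens and at 308, 299, 278, 275 and 289 in VENins. The groups were apart again, with the highest values in VENins 1 and VENins 2. Its log2 fold change was 0.19 ± 0.05 (SE), with an adjusted p of 0.113 in edgeR and 0.0446 in DESeq2, and between 0.00261 and 0.534 over the alternatives. STIP1 (ENSG00000168439), the adaptor between HSP70 and HSP90, was at 185, 179, 205, 192 and 205 in VENsens and at 222, 208, 214, 219 and 251 in VENins. The VENins lines lay above the VENsens lines by a narrow margin at the nearest pair of lines, and VENins 5 was highest. The log2 fold change was 0.20 ± 0.05 (SE), with an adjusted p of 0.0974 in edgeR and 0.0298 in DESeq2, and between 0.0235 and 0.484 over the alternatives.

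**Figure D3:**
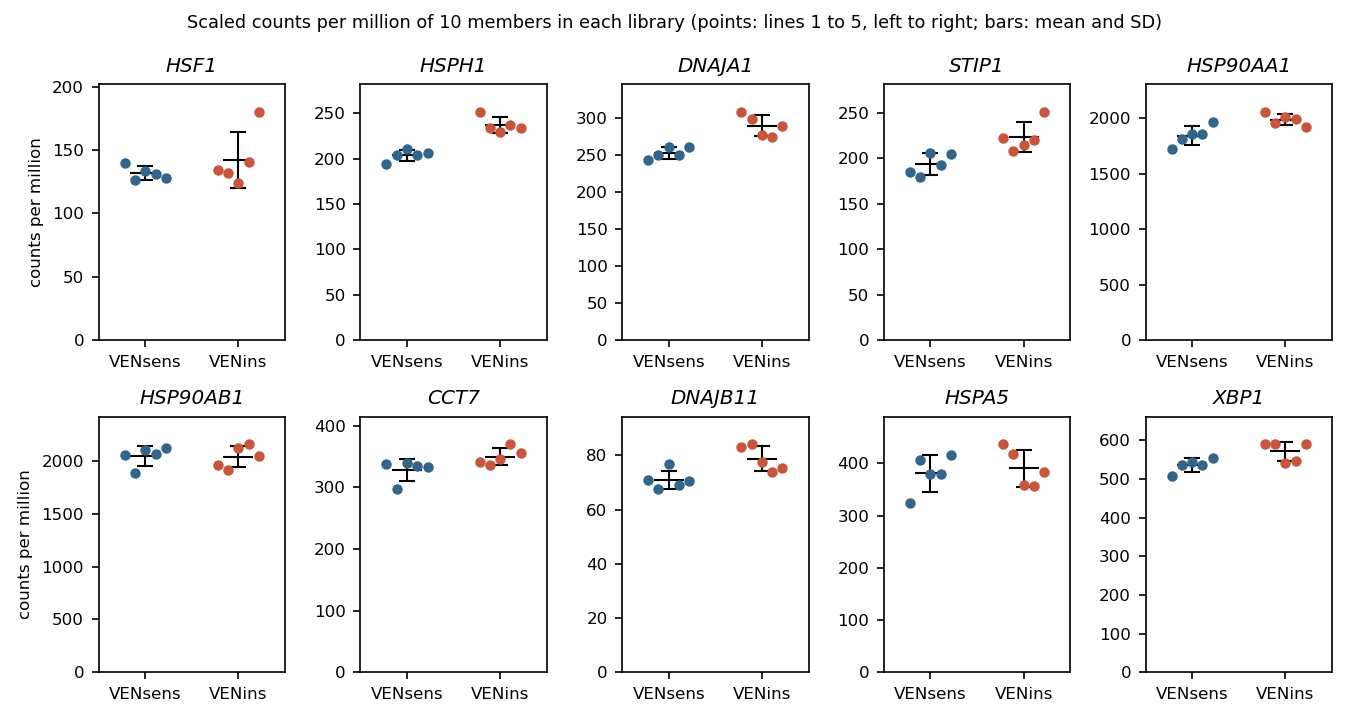
CPM of 10 members in each library, with the mean and SD of each group; points run from line 1 to line 5. HSPH1, DNAJA1 and STIP1 show no overlap between the groups, HSP90AB1 overlaps throughout, HSF1 is high in VENins 5 at 180.1, and HSPA5 is low in VENsens 1 at 324.

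The other HSP40 genes had small positive log2 fold changes, from 0.08 for DNAJA2 to 0.18 for DNAJB2, with DNAJB1 at 0.12, DNAJB4 at 0.10 and DNAJB6 at 0.14 ± 0.06 (SE, adjusted p = 0.236). For DNAJB6 this was 0.09 without line 2 and 0.23 with length and GC correction. DNAJB1, a classic heat shock HSP40, was at 119, 115, 118, 119 and 119 in VENsens and at 134, 129.7, 123, 115 and 141 in VENins, so 4 of 5 VENins lines exceeded every VENsens line and VENins 4 did not. HSPA14, a ribosome-associated HSP70, was at 63.0 ± 2.94 in VENsens and 69.9 ± 4.73 in VENins (SD, n = 5 each). Its log2 fold change was 0.15 ± 0.06 (SE, adjusted p = 0.25). HSPA4, an HSP110 relative of HSPH1, had 0.06, and the HSP70 cochaperone ST13 had 0.04. BAG3, which couples HSP70 to selective autophagy, had the lowest log2 fold change of the group, with 6.59 ± 0.798 in VENsens and 5.55 ± 1.4 in VENins. The value of -0.26 ± 0.15 (SE, adjusted p = 0.419) was uneven among lines, since VENins 4, at 7.86, held the highest of the 10 values, and came to -0.48 without line 4. BAG1 had a log2 fold change of -0.05. The genes HSPA14, DNAJB6, DNAJB1, HSPA8, HSPB1 and BAG3 were taken up after their values were seen.

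Further cytosolic co-chaperones came from a list of 30 genes, of which 27 were tested, 20 of them above 0 and 7 below. The median log2 fold change was 0.06. At an unadjusted p under 0.05, 6 genes (22.2%) were higher, against 7.79% of all tested genes, and 0 were lower. The adjusted threshold was passed by 0 in edgeR and 2 (FKBP4 and AHSA1) in DESeq2. The smallest p belonged to FKBP4, an immunophilin that sits on HSP90 with steroid receptors, at 13.9, 13.2, 14.1, 13.4 and 13.5 in VENsens and 15.2, 18.7, 21.1, 21.1 and 15.6 in VENins. All VENins lines were above all VENsens lines, with VENins 1 and VENins 5 nearest to them. The log2 fold change was 0.42 ± 0.09 (SE), with an adjusted p of 0.0653 in edgeR, 0.0181 in DESeq2, and 0.000485 to 0.466 over the alternatives. AHSA1, which stimulates the ATPase of HSP90, was at 149, 145, 164, 153 and 155 in VENsens and 177, 183, 173, 176 and 189.5 in VENins. These groups were apart as well, and the log2 fold change was 0.23 ± 0.05 (SE), with an adjusted p of 0.0843 in edgeR, 0.0135 in DESeq2, and 0.000335 to 0.484 over the alternatives. Other HSP90 co-chaperones of the list were uneven. Of those taken up after their values were seen, PTGES3 was at 545 ± 22 in VENsens and 618 ± 26.7 in VENins, PPID at 33.1 ± 1.36 and 37.7 ± 1.91, and CHORDC1 at 46.2 ± 3.38 and 54.1 ± 2.62 (SD, n = 5 each). Their log2 fold changes were 0.18, 0.19 and 0.23, with edgeR adjusted p values of 0.125 (0.00518 to 0.561 over the alternatives), 0.184 (0.0297 to 0.53) and 0.0991 (0.0122 to 0.491). CDC37 at 0.05, FKBP5 at 0.0088, PPP5C at -0.010, UNC45A at -0.013 and TTC4 at -0.11 were near 0 or below it.

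The 8 TRiC subunits form the complex in equal numbers. Without pseudogene counts, their levels per length ran from 39.5 CPM per kilobase for CCT6A to 96.1 for CCT8, a 2.43-fold range. Counts of the CCT8 pseudogene came to 78.0% of those of CCT8. The log2 fold changes of the subunits ran from 0.06 for CCT4 to 0.10 for CCT6A. None passed the adjusted threshold in edgeR or DESeq2 with the line term or had an unadjusted p under 0.05 in edgeR, and the smallest adjusted p was 0.385. CCT7 gave 337, 297, 340.1, 334 and 333 in VENsens lines 1 to 5 and 341, 337, 345, 370.0 and 356 in VENins lines 1 to 5. VENsens 2 was low, and 4 of 5 VENins lines exceeded every VENsens line. CCT6A gave 145, 146, 154, 147 and 151 in VENsens and 166, 167, 159, 161 and 144 in VENins. Here VENins 5 had the lowest of the 10 values and the other VENins lines the highest. CCT5 gave 306, 289, 319, 315 and 323 in VENsens and 324, 317, 334, 341 and 329.9 in VENins, and CCT8 gave 303, 317, 321, 309 and 319.5 against 322, 337, 339, 335 and 307. In both, 4 VENins lines lay above the VENsens range, the exception being VENins 2 for CCT5 and VENins 5 for CCT8. The log2 fold changes were 0.09 ± 0.05 for CCT7, 0.10 ± 0.06 for CCT6A, 0.09 ± 0.05 for CCT5 and 0.06 ± 0.05 for CCT8 (SE). The sum over the 8 subunits was 2315 ± 65.0 in VENsens and 2439 ± 53.1 in VENins (SD, n = 5 each). Every VENins library was above every VENsens library, by a narrow margin (2387 in VENins 5 and 2379 in VENsens 3). For each subunit alone the groups overlapped.

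Partners and clients of TRiC came from 2 further lists. Of 11 tested prefoldin subunits and TRiC partners, 11 had a log2 fold change above 0 (median 0.14), against 51.1% of all tested genes. At an unadjusted p under 0.05, 6 (54.5%) were higher, against 7.79% of all tested genes. The adjusted threshold was passed by 0 in edgeR or DESeq2 with the line term. PFDN2, a prefoldin subunit that brings chains to TRiC, was at 42.6 ± 3.06 in VENsens and 50.0 ± 2.98 in VENins (SD, n = 5 each), with no overlap and a log2 fold change of 0.23 ± 0.06 (SE, adjusted p = 0.117, and 0.0136 to 0.561 over the alternatives). PFDN4 was at 35.9 ± 1.87 and 42.8 ± 6.5, with 4 of 5 VENins lines above the VENsens range and a log2 fold change of 0.25 ± 0.07 (SE, adjusted p = 0.12, and 0.0399 to 0.561). Of 8 tested actin and tubulin genes, 7 were above 0 (median 0.10), 3 (37.5%) at an unadjusted p under 0.05, 0 past the adjusted threshold in edgeR or DESeq2 with the line term. TUBB4B was at 316 ± 23.5 in VENsens and 393 ± 62.7 in VENins, highest in VENins 5 at 491, with a log2 fold change of 0.30 ± 0.08 (SE, adjusted p = 0.106, and 1.8e-05 to 0.561 over the alternatives). TUBB2A, at 3.40 ± 0.489 and 4.38 ± 0.808, had 0.36 ± 0.14 (SE, adjusted p = 0.222), and 0.23 without line 2.

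The ER group showed no common direction. The sensors and the transcription factor are given first. ERN1, the kinase and nuclease that splices XBP1 RNA, was at 10.9, 11.5, 9.26, 10.8 and 9.85 in VENsens lines 1 to 5 and at 11.8, 8.87, 8.38, 10.5 and 10.8 in VENins lines 1 to 5. The groups overlapped, with a log2 fold change of -0.06 ± 0.09 (SE, adjusted p = 0.815) that reversed to 0.02 without line 2. ATF6, a membrane-bound transcription factor, was at 38.9, 42.3, 37.2, 39.0 and 39.9 in VENsens and 37.6, 34.1, 38.2, 38.9 and 34.4 in VENins. VENins 2 and VENins 5 lay below the VENsens range and the others inside it, with a log2 fold change of -0.11 ± 0.07 (SE, adjusted p = 0.452), and -0.06 without line 2. XBP1 was at 507, 536, 543, 535 and 555 in VENsens and 589, 589, 540.1, 547 and 589.7 in VENins. VENins 1, 2 and 5 lay above every VENsens line and VENins 3 and 4 inside their range, with a log2 fold change of 0.09 ± 0.05 (SE, adjusted p = 0.385). Counts per gene do not separate the spliced from the unspliced form of XBP1.

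Without pseudogene counts, XBP1 and the lectin chaperone CALR had the highest levels per length in the ER group, at 183 and 149 CPM per kilobase. They were followed by CANX at 124, HSP90B1 at 108 and HSPA5 at 98.8. Promoters of 4 of these 5 are shown because all 5 carry the ER stress element, the sequence through which ATF6 and XBP1 act. It was taken as CCAAT and CCACG with 9 bases between them, on either strand. It was in 7 of 21 promoters of the ER members, belonging to HSPA5, HSP90B1, PDIA6, CALR, CANX and XBP1, in 0 of the 24 cytosolic and 0 of the 9 TRiC promoters, and in 0.0740% of all promoters (26 of 35116). The promoters printed are those of HSPA5 (chr9:125241344-125241593, minus strand), HSP90B1 (chr12:103930160-103930409, plus strand, 2 matches), CALR (chr19:12938359-12938608, plus strand, matched on the opposite strand) and XBP1 (chr22:28800570-28800819, minus strand), from RefSeq on GRCh38.p14, with the element in capitals.
HSPA5: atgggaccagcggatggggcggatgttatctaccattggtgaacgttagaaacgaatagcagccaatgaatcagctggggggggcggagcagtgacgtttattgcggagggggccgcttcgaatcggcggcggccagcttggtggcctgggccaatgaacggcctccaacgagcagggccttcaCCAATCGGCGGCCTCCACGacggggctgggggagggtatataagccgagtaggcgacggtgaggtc
HSP90B1: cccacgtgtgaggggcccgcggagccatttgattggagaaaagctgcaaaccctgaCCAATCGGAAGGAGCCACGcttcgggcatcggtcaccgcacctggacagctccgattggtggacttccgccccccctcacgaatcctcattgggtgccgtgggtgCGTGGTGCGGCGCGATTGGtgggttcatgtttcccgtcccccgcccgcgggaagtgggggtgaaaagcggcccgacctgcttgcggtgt
CALR: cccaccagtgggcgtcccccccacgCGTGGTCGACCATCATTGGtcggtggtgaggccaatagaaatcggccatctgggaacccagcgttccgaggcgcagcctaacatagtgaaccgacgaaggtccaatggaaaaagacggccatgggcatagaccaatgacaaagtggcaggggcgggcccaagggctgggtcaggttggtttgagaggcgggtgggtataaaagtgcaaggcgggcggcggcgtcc
XBP1: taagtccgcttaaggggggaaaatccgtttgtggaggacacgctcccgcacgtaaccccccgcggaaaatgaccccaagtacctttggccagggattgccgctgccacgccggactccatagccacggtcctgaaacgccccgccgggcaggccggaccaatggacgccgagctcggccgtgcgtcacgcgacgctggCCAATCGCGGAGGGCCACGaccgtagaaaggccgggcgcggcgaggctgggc
The 6 genes with the element had log2 fold changes on both sides of 0, from -0.07 for CANX and -0.05 for PDIA6 to 0.08 for HSP90B1 and 0.09 for XBP1.

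HSPA5 (BiP), the ER HSP70 and the usual readout of ER stress, was measured at 324, 407, 379, 380.3 and 415 in VENsens and at 437, 418, 359, 357 and 383 in VENins. VENsens 1 was the lowest and VENins 1 the highest of the 10 libraries, and the others overlapped. The log2 fold change was 0.04 ± 0.07 (SE, adjusted p = 0.854), and -0.06 without line 1. CALR was at 364, 380.5, 409, 413 and 430.2 in VENsens and 422, 409.9, 378, 393 and 446 in VENins, overlapping, with a log2 fold change of 0.04 ± 0.06 (SE, adjusted p = 0.795), and -0.0061 without line 1. DNAJB11, an HSP40 that serves HSPA5, had the smallest p of the group. It was at 70.7, 67.4, 76.7, 69.2 and 70.6 in VENsens and 82.9, 84.1, 77.4, 73.8 and 75.5 in VENins, so 3 VENins lines exceeded every VENsens line, and its log2 fold change was 0.15 ± 0.06 (SE, adjusted p = 0.231). HYOU1, the exchange factor of HSPA5, went the other way in mean value, at 68.5, 72.3, 64.1, 70.0 and 72.1 in VENsens and 72.2, 57.9, 56.7, 64.5 and 69.6 in VENins. VENins 2 and VENins 3 lay below the VENsens range, and the log2 fold change was -0.12 ± 0.06 (SE, adjusted p = 0.37), -0.07 without line 2 and -0.06 with length and GC correction. SDF2L1, a partner of DNAJB11, had the highest log2 fold change of the group, 0.22 ± 0.12 (SE, adjusted p = 0.389), with VENins 5 at 26.7 and VENins 3 at 14.8, the highest and the lowest of the 10 values. It came to 0.12 without line 5 and 0.37 without line 3. The remaining ER members, HSPA13, DNAJB9, DNAJC3, PDIA3 and PDIA4, had log2 fold changes from -0.02 to 0.07.

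Line 1 set the direction of the ER median. VENsens 1 held the lowest of the 10 values for 9 of the 16 ER genes, and VENins 1 the highest for 4. Without line 1 the median log2 fold change of the ER group was -0.06, beside 0.03 with it. The median of the ER group in each library, relative to the mean of each gene over the 10 libraries, was -0.14 in VENsens 1 and between -0.02 and 0.06 in the other VENsens lines, and ran from -0.10 in VENins 3 to 0.11 in VENins 1. On the same scale the cytosolic group lay between -0.10 and -0.02 in VENsens and between 0.03 and 0.08 in VENins, with no overlap, and TRiC between -0.07 and 0.0016 in VENsens and between -0.02 and 0.07 in VENins. The list of prefoldin and TRiC partners did not overlap either, with a highest VENsens value of -0.0036 and a lowest VENins value of 0.0024. The summed CPM of the cytosolic group did overlap, at 6839.7 to 7444 in VENsens and 7043 to 7626 in VENins.

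Further ER genes came from 3 lists. Of 30 tested ER folding and translocation genes, 22 were above 0 and 8 below (73.3% above, median 0.04). At an unadjusted p under 0.05, 4 (13.3%) were higher and 1 lower, against 7.79% higher and 8.38% lower over all tested genes. The adjusted threshold was passed by 0 in edgeR and 1 (SEC61B) in DESeq2. The list median was above all 5 VENsens libraries in all 5 VENins libraries, by a narrow margin (-0.01097 in VENsens 5 and -0.01085 in VENins 3). SEC61B, a subunit of the translocation channel, was at 44.1 ± 3.9 in VENsens and 55.1 ± 7.02 in VENins (SD, n = 5 each), without overlap, with a log2 fold change of 0.32 ± 0.09 (SE). Its adjusted p was 0.114 in edgeR, 0.0489 in DESeq2 and 0.00116 to 0.53 over the alternatives, and the log2 fold change was 0.19 without line 2. SEC61G, of the same channel, was at 12.7 ± 0.78 and 15 ± 0.99, with 0.23 ± 0.08 (SE, adjusted p = 0.165). Of 21 genes of ER-associated degradation, 12 were above 0 and 9 below (median 0.0087), with 1 higher (4.76%) and 3 lower at an unadjusted p under 0.05 and 0 past the adjusted threshold in edgeR or DESeq2 with the line term. In 2 genes taken up after their values were seen, EDEM1 and FAF2, all VENins lines lay below all VENsens lines, and in 0 above. Over all tested genes, 2.3% lay below and 2.36% above in this way. EDEM1 was at 684 ± 19.2 in VENsens and 622 ± 18.6 in VENins (edgeR adjusted p = 0.192). FAF2 was at 141 ± 3.66 and 131 ± 5.81 (edgeR adjusted p = 0.348). SEL1L, the adaptor of the HRD1 ubiquitin ligase, was at 102 ± 8.14 in VENsens and 86.1 ± 8.38 in VENins, a log2 fold change of -0.25 ± 0.07 (SE, adjusted p = 0.115, and 0.0103 to 0.561 over the alternatives), and the lectin OS9 was at 88.6 ± 2.68 and 79.6 ± 4.43, a log2 fold change of -0.16 ± 0.06 (SE, adjusted p = 0.185, and 0.0464 to 0.561). Of 7 tested sensors and effectors of the unfolded protein response outside the members, 3 were above 0 and 4 below (median -0.02), with 1 higher (14.3%) and 2 lower at an unadjusted p under 0.05. DDIT3 (CHOP) was at 57.1 ± 4.62 and 65.2 ± 5.16, with 0.19 ± 0.07 (SE, adjusted p = 0.19), and MBTPS2, a protease that releases ATF6, was at 34.0 ± 2.32 and 28.9 ± 3.18, with -0.24 ± 0.08 (SE, adjusted p = 0.181).

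For comparison, the 8 mitochondrial matrix chaperones had 4 genes above and 4 below 0 and a median of 0.0015 in log2 fold change. Of these, 2 of 8 (25%) were higher and 0 lower at an unadjusted p under 0.05 in edgeR. The share higher was 27.8% of the cytosolic members and 7.79% of all tested genes. Of the mitochondrial genes, 0 passed the adjusted threshold in edgeR or DESeq2 with the line term. GRPEL1 (0.13) and HSPE1 (0.18, and 0.08 without line 2) had the smallest p, with adjusted p values of 0.275 and 0.29. Of 13 tested subunits of the 20S proteasome, 12 were above 0, with a median of 0.14, 7 at an unadjusted p under 0.05 and 0 past the adjusted threshold in edgeR or DESeq2 with the line term. PSMB6 (0.20, adjusted p = 0.133, and 0.0114 to 0.561 over the alternatives) and PSMA5 (0.21, adjusted p = 0.137, and 0.0239 to 0.564) had the smallest p. The cytosolic chaperones, with a median of 0.11, and TRiC, with 0.08, lay between these lists, and the differences between lists were not tested.

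**Figure D4:**
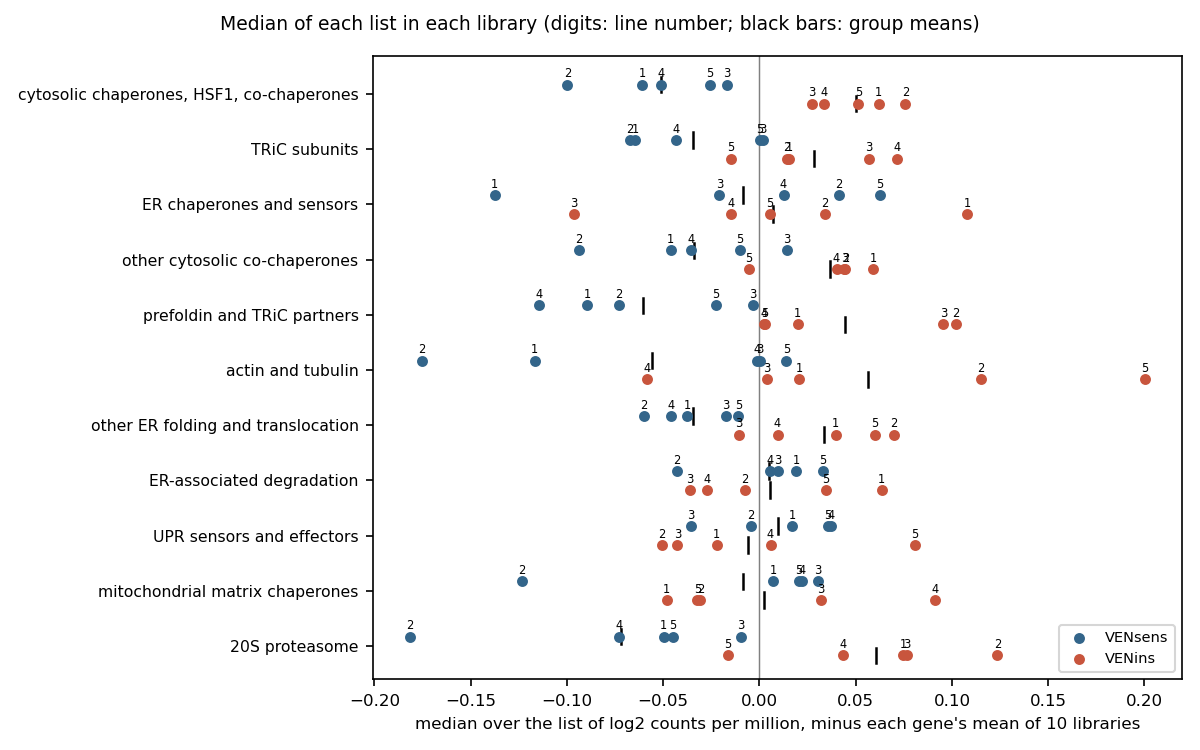
Median over each gene list of log2 CPM, minus the mean of each gene over the 10 libraries, in each VENsens and VENins library (digits give the line number, black bars the group means). The cytosolic chaperones lie between -0.10 and -0.02 in VENsens and between 0.03 and 0.08 in VENins, the ER chaperones overlap with VENsens 1 lowest at -0.14, and the mitochondrial chaperones overlap. The prefoldin and TRiC partners and the other ER folding and translocation genes are also apart, by narrow margins.

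Some members share sequence with processed pseudogenes, and reads may have been split between them. The search covered only pseudogene names made of a member symbol, P and a number. Other names were not searched, so members without a match may still share reads with pseudogenes. Pseudogenes with a searched name were found for 13 of the 44 members. Their counts came to 125.5% of those of PDIA3 itself, 78.0% of those of CCT8, 54.2% of ST13, 33.3% of TCP1, 32.6% of STIP1, 22.7% of CCT5, 17.3% of HSPB1, 14.1% of DNAJA1, 7.23% of HSPA8 and 5.57% of CCT7, and under 1% for the other 3. The source of the pseudogene counts was not tested. The levels of these members, and PDIA3 and CCT8 above all, hold only for the reads assigned to the member itself. The STIP1 pseudogene was at 63.4 ± 2.0 in VENsens and 72.3 ± 4.1 in VENins, and those of DNAJA1 summed to 36.4 ± 1.38 and 40.3 ± 1.66 (SD, n = 5 each), in the direction of the genes. Those of CCT7 were level, at 18.9 ± 0.537 in VENsens and 18.9 ± 1.15 in VENins, and that of CCT8 was at 248 ± 7.55 and 253 ± 12.6. With the counts of these pseudogenes added to the member, 0 of 42 members passed the adjusted threshold and 32 were above 0, as without them.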

How the data were processed

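For each of the 10 libraries the authors deposited raw read counts per Ensembl gene ID, 38491516 to 52960365 reads per file. Per the submitters' processing notes the tools were bcl2fastq 2.20.0.422, Bowtie2 2.3.5.1, SAMtools 1.9 and HTSeq 0.9.1, on hg19/GRCh37; the strand setting was not given. Names and exon lengths came from GENCODE 29 by gene ID. Genes passing filterByExpr were tested in edgeR 4.0.16 (R 4.3.3) by the quasi-likelihood F test with TMM, with group and line number as terms because the study's methods describe a paired analysis, and Benjamini-Hochberg adjustment over all tested genes (threshold 0.05). DESeq2 1.42.0, other scalings and filters, no line term, length and GC correction, added pseudogene counts and leaving out each line were alternatives. On simulated data with known changes, the fit called 67 of 67 genes at a log2 change of 0.5, 26 of 66 at 0.25, and 5 unchanged ones. Libraries within a group differed beyond sampling noise (chi-square per degree of freedom 1.92 to 14.2). Given in every library are, in each group, the 3 members with the smallest p and the 2 with the highest level per length, and the regulators; some genes were taken up after their values were seen. Of each further list, the 2 genes with the smallest p are named. Members and lists were chosen with earlier results of these data known. PSMB3 of the proteasome list matched no ID.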

Additional observations from a re-analysis of the deposited data

Results flagged for a closer look

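Values that stood apart within a group of 5 libraries were looked for in the named genes and in the sums over the 3 chaperone groups, by the gap to the nearest library divided by the range of the group (above 0.71). Of 94 groups of 5, 4 had such a value, where chance gives about 1 in 20. HSP90AB1 was at 1885 in VENsens 2, beside 2058 to 2121 in the other VENsens lines. CCT7 was at 297 in VENsens 2, beside 333 to 340.1. The HSP90 partner CHORDC1 was at 52.2 in VENsens 3, beside 44.3 to 45.2, which put it above the lowest VENins value of 50.8. SEC61B was at 67.6 in VENins 2, beside 51.0 to 53.6 in the other VENins lines.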

How the results depend on the processing

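The 15 alternatives changed the number of calls more than the directions. Without the line number, edgeR called 149 genes and 2 members (HSPH1 and DNAJA1). DESeq2 called 217 genes with it and 739 without it, each time with 3 members (HSPH1, STIP1 and DNAJA1). The same 3 were called by edgeR with no filter (664 genes), and length and GC correction gave 155 genes and 2 members (HSPH1 and STIP1). The remaining scalings, filter and sums gave 28 to 44 genes and 0 members, and leaving out a line gave 6 to 331 genes and 0 members. Same-numbered libraries did not deviate together (correlations -0.14 to 0.05), and 0 of 10 correlated best with their own number.

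Without a line, the median log2 fold change ran from 0.10 to 0.14 for the cytosolic group, from 0.06 to 0.09 for TRiC and from -0.060 (without line 1) to 0.060 for the ER group. Of 24 named members, 18 kept their sign throughout. ERN1 reversed to 0.024 with length and GC correction. Leaving out each line, it ran from -0.11 to 0.019 (reversed without line 2), HSP90AB1 from -0.022 to 0.012 (without line 1; 0.0082 without line 5), CALR from -0.0061 (without line 1) to 0.075, HSPA5 from -0.061 (without line 1) to 0.075, HSPA8 from -0.099 to 0.016 (without line 2) and HSF1 from -0.0024 (without line 5) to 0.15. The cause was not tested. HSPA1A and HSPA1B had too few counts to test, also when summed (4 counts).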
